A study of Homo sapiens with 15 samples.

Results

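Steroid hormone synthesis in granulosa cells is described here through 10 genes that bring in cholesterol, cut and reshape it, or pass electrons to the enzymes that do so. The genes were taken from a fixed list, and every probe set whose single gene symbol in the platform annotation is a listed gene was used. Of the 10 genes, 9 had such a probe set, with 23 probe sets among the 54613 of the array that were tested and 19775 genes with a symbol. FDXR, the reductase that hands electrons to ferredoxin, had no probe set under its single symbol, so its signal was not analysed here. CYP19A1 had 7 probe sets, SCARB1 had 5, FDX1 had 3, CYP17A1 and HSD17B1 had 2 each, and STAR, CYP11A1, HSD3B2 and POR had 1 each.

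The 15 arrays cover 2 established cell lines, both used as granulosa cell tumour lines in the study. KGN carries the 402C>G mutation of FOXL2, a forkhead transcription factor of the ovary, on a single allele together with a wildtype allele. KGN cells at passage 8 received a GC matched control siRNA (control, 3 arrays) or siRNA against FOXL2 (knockdown, 3 arrays). COV434 lacks the mutation, and its cells at passage 9 received 1 µg of empty vector (3 arrays), of a plasmid with wildtype FOXL2 (3 arrays) or of a plasmid with mutant FOXL2 (3 arrays). All wells were seeded with 300000 cells, the lipid complexes were taken off at 7 h and RNA was collected at 24 h, so every group, controls included, had been through a lipid transfection. Each of the 3 arrays of a group stands for a transfection of its own, and these were run side by side on 1 occasion. The empty vector is the wildtype plasmid with its FOXL2 sequence cut out.

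Steroid synthesis starts when cholesterol reaches the inner mitochondrial membrane, where CYP11A1 cuts its side chain to make pregnenolone. SCARB1 takes up cholesterol from lipoproteins at the cell surface, and StAR, the product of STAR, moves it into the mitochondrion. In the mitochondrion FDX1 and FDXR supply CYP11A1 with electrons, while POR supplies the microsomal enzymes CYP17A1 and CYP19A1. HSD3B2 turns pregnenolone into progesterone, CYP17A1 makes androgens, CYP19A1 (aromatase) turns androgens into oestrogens, and HSD17B1 turns oestrone into oestradiol. In the ovary theca cells make the androgens and granulosa cells make the oestrogen, so CYP17A1 is a theca gene and CYP19A1 a granulosa gene. STAR and CYP19A1 are both known as targets of FOXL2.

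Promoters are shown for CYP19A1, CYP11A1 and FDX1, because these genes stand for the patterns described below: aromatase near background in KGN alone, side-chain cleavage enzyme below background in both lines, and a carrier that is bright in both. The stretches are the 250 bases before a RefSeq transcription start in build GRCh38.p14, written on the strand of the gene from 5′ to 3′. Capitals mark matches to CAAGGTCA (a site for NR5A1, the nuclear receptor SF-1) or TATAAA (a core promoter box), searched on both strands.
CYP19A1, chr15:51243030-51243279, minus strand: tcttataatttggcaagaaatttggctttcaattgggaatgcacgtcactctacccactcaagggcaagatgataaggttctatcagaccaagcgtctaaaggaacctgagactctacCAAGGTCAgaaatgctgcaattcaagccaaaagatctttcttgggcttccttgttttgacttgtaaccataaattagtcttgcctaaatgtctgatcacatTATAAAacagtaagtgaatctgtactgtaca
CYP11A1, chr15:74367647-74367896, minus strand: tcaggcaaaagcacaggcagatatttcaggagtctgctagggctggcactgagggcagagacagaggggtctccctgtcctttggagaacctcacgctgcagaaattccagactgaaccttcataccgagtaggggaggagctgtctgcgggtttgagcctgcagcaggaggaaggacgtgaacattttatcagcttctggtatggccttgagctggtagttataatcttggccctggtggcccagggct
FDX1, chr11:110429698-110429947, plus strand: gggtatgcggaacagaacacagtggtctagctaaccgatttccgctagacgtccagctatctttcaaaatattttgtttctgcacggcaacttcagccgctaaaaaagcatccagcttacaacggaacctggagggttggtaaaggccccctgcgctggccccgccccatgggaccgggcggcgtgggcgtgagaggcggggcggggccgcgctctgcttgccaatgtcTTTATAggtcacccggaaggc

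The CYP19A1 stretch belongs to the most downstream of 7 starts of the gene, and it holds an NR5A1 site beginning at position −132 and a TATAAA box beginning at −31 relative to the start. FDX1 has such a box on the opposite strand beginning at −21, and it is the richest of these stretches in the pair CG, with 18 against 4 for CYP11A1 and 2 for CYP19A1. The forkhead core GTAAACA was searched as well and was in none of the 13 promoters read for 6 of the genes. These genes are CYP11A1, CYP17A1, CYP19A1, HSD3B2, FDX1 and FDXR, and each promoter is 300 bases long including 50 bases after the start. The NR5A1 site was in the CYP19A1 promoter shown and in no other promoter read, those of the other CYP19A1 starts included. Which CYP19A1 start these cells use was not measured. No promoter of STAR, SCARB1, HSD17B1 or POR was read, so the search says nothing of them. Among the 35116 RefSeq promoters of that length, 1.28% hold the NR5A1 site, 11.5% the TATAAA box and 3.42% the forkhead core. These are matches of letters in a window and not measured binding.

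The arrays give no detection calls, so each signal was set against a background level, the 95th percentile in the same line of 141 probe sets that read olfactory receptors or keratin-associated proteins. It was 5.30 on the log2 scale in KGN and 5.05 in COV434. FOXL2 itself had a log2 signal of 8.07 ± 0.15 (SD, n = 3) in KGN control and 6.30 ± 0.05 (SD, n = 3) after knockdown, a difference of −1.77 (standard error 0.10, limma adjusted p = 0.000556). In COV434 the FOXL2 means were 2.57 to 2.87, below background in all 3 groups. The probe set lies outside the sequence the plasmids carry, as the study describes it, and checks nothing there. The study reports FOXL2 overexpression from both plasmids by RT-qPCR and by Western blot, which are not part of the array data. Array RR1016 of the empty vector group stood apart: its 3′ signal exceeded its 5′ signal by 7.81 (ACTB) and 4.67 (GAPDH) on the log2 scale, against 1.51 to 2.58 and 0.10 to 1.08 on the other 14 arrays. Results that rest on it are given with and without it. The signals come from RNA of whole cultures, so fewer expressing cells and less RNA per cell cannot be told apart.

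Of the 23 probe sets, 9 lay above background in KGN, with control siRNA and after knockdown alike, and they read 6 genes: STAR, SCARB1, CYP19A1, HSD17B1, FDX1 and POR. In COV434, 8 lay above background in each of the 3 groups, and they read 4 genes: SCARB1, HSD17B1, FDX1 and POR. The shares, 39.1% and 34.8%, sat below those of all probe sets, 43.5% in KGN and 40.2% to 40.7% in COV434. Cholesterol uptake and the electron carriers were thus measured above background in both lines, STAR in KGN, CYP19A1 in KGN by a small margin, and CYP11A1, CYP17A1 and HSD3B2 in neither.

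**Figure D1:**
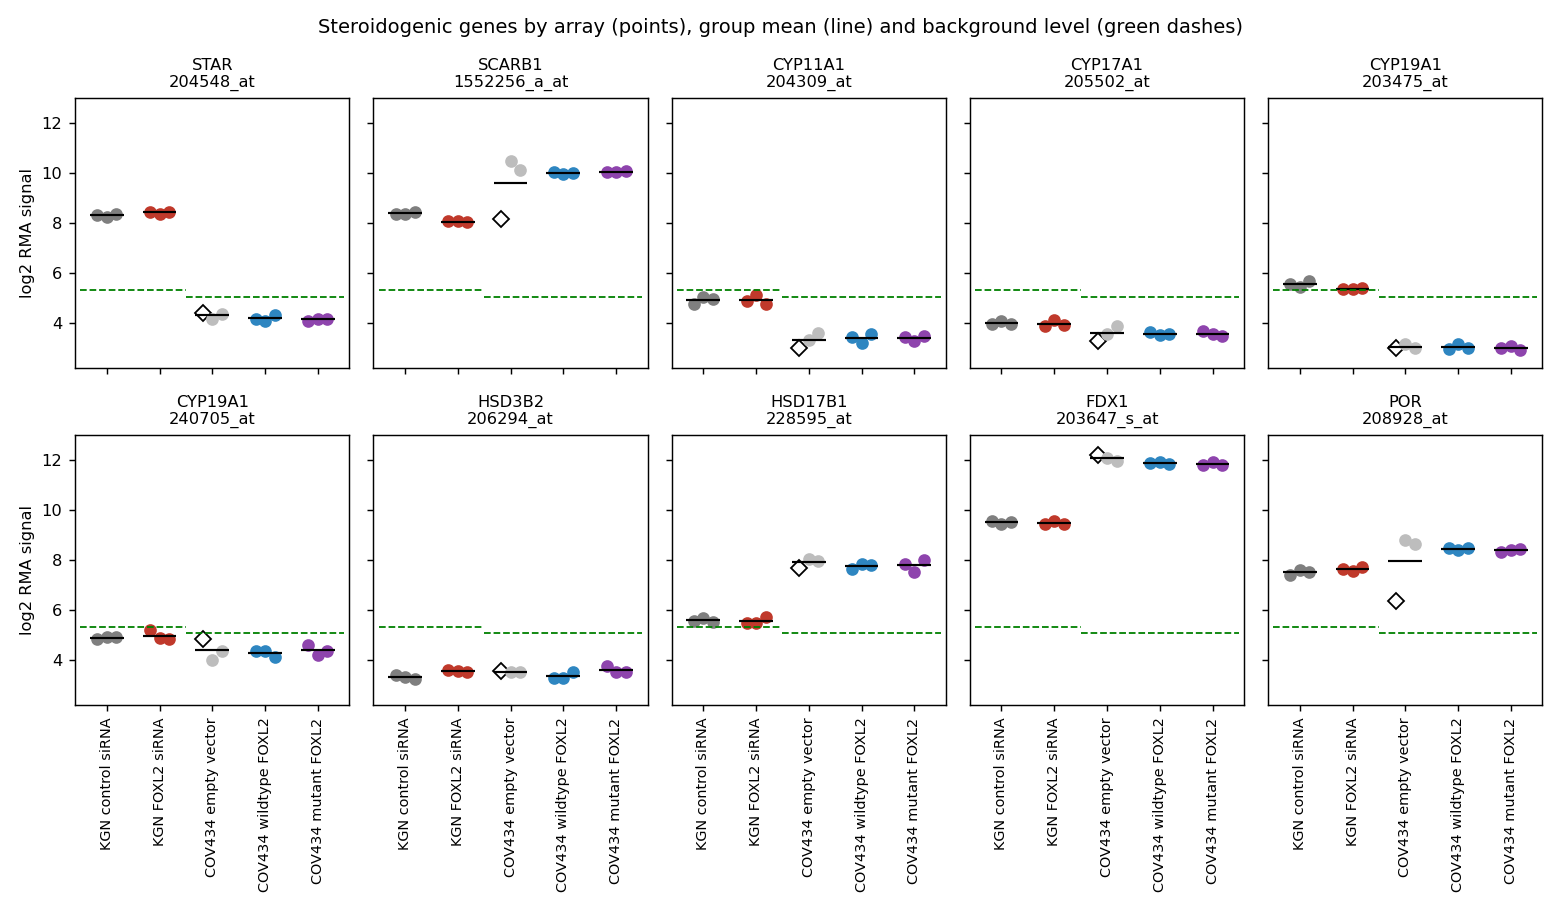
Log2 RMA signal (vertical axis, common to all panels) of 10 probe sets of the 9 measured genes in the 5 groups; points are arrays, black lines group means (n = 3), green dashes the background level of the line and the open diamond array RR1016. STAR lies near 8.3 in KGN and near 4.2 in COV434, while SCARB1 and POR drop on RR1016 to 8.13 and 6.35 and lie from 9.94 and 8.32 upward on the other COV434 arrays.

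STAR was bright in KGN and within background in COV434. Its log2 signals were 8.31, 8.22 and 8.37 with control siRNA and 8.44, 8.37 and 8.43 after FOXL2 knockdown. In COV434 they were 4.37, 4.17 and 4.36 with empty vector, 4.16, 4.07 and 4.31 with wildtype FOXL2 and 4.07, 4.17 and 4.17 with mutant FOXL2. The highest COV434 array lay far below the lowest KGN array, and within each line the groups overlapped.

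SCARB1, the lipoprotein receptor, was well above background in both lines at its brightest probe set, 1552256_a_at. In KGN the log2 signals were 8.35, 8.35 and 8.44 with control siRNA and 8.06, 8.06 and 8.03 after knockdown. In COV434 they were 8.13, 10.48 and 10.11 with empty vector, 10.03, 9.94 and 10.01 with wildtype FOXL2 and 10.02, 10.05 and 10.08 with mutant FOXL2. The knockdown arrays lay below all control arrays, and in COV434 the value of 8.13 is that of RR1016 while the other 8 arrays lay between 9.94 and 10.48. A further probe set, 201819_at, followed the same order, with 7.60 to 7.70 in KGN control, 7.34 to 7.39 after knockdown, 7.62 on RR1016 and 8.55 to 8.74 on the other COV434 arrays. The remaining SCARB1 probe sets, 215834_x_at, 215835_at and 232421_at, had group means of 2.15 to 4.94, below background in every group.

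The side-chain cleavage enzyme CYP11A1 lay below background on every array at its single probe set. Its log2 signals were 4.74, 5.02 and 4.94 with control siRNA, 4.88, 5.12 and 4.76 after knockdown and 3.0 to 3.57 on the 9 COV434 arrays. CYP17A1, the androgen-making enzyme of theca cells, had 3.88 to 4.10 in KGN and 3.29 to 3.87 in COV434 at its brighter probe set, and 2.33 to 2.79 over both lines at the other. HSD3B2, which makes progesterone, had 3.23 to 3.57 in KGN and 3.27 to 3.76 in COV434. None of these values tells a transcript from the signal that probe sets of unexpressed genes give.

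Aromatase was read above background by a single CYP19A1 probe set, 203475_at, and in KGN alone. There the log2 signals were 5.55, 5.44 and 5.67 with control siRNA and 5.34, 5.35 and 5.39 after knockdown, 0.26 and 0.06 above the background level on average. With background set at the 99th percentile of the same probe sets, 6.40 in KGN, this probe set lay below background too, as did 228595_at of HSD17B1 and 239161_at of FDX1 in KGN. In COV434 the 9 arrays gave 2.92 to 3.14. The knockdown arrays lay below all control arrays, and all 6 KGN arrays lay above every COV434 array. The probe set with the highest mean over both lines, 240705_at, had 4.83 to 5.21 in KGN and 3.97 to 4.84 in COV434, below background throughout, and the other 5 CYP19A1 probe sets had group means of 2.02 to 3.90.

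HSD17B1, which makes oestradiol, was brighter in COV434 than in KGN at both of its probe sets. At 228595_at the log2 signals were 5.56, 5.69 and 5.50 with control siRNA, 5.45, 5.49 and 5.70 after knockdown, 7.69, 8.04 and 7.97 with empty vector, 7.64, 7.83 and 7.80 with wildtype FOXL2 and 7.83, 7.53 and 7.98 with mutant FOXL2. At 205829_at the control siRNA arrays had 3.66 to 3.82 and the knockdown arrays 3.95 to 4.12, both below background, and the COV434 arrays 6.58 to 7.15. The lines were far apart at both probe sets, and the KGN signal was close to background.

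The electron carriers lay well above background in both lines. FDX1, the ferredoxin that serves CYP11A1, had log2 signals of 9.55, 9.45 and 9.53 with control siRNA and 9.45, 9.54 and 9.45 after knockdown at 203647_s_at, and 12.20, 12.06 and 11.96 with empty vector, 11.87, 11.93 and 11.84 with wildtype FOXL2 and 11.81, 11.90 and 11.80 with mutant FOXL2. Its other probe sets, 203646_at and 239161_at, also lay above background in all 5 groups, with means of 7.88 to 7.99 and 6.36 to 6.37 in KGN and of 10.29 to 10.38 and 8.78 to 8.98 in COV434. POR, the reductase of the microsomal enzymes, had 7.40, 7.61 and 7.50 with control siRNA, 7.64, 7.57 and 7.71 after knockdown, 6.35, 8.81 and 8.64 with empty vector, 8.48, 8.39 and 8.47 with wildtype FOXL2 and 8.32, 8.40 and 8.45 with mutant FOXL2. As for SCARB1, the low POR value is that of RR1016, and it is the sole COV434 value below the KGN arrays.

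Whether FOXL2 knockdown moved these genes in KGN was tested with limma on the 6 arrays, and a probe set is called here when its p, adjusted over all 54613 probe sets, is under 0.05. None of the 23 was called, against 0.273% of all probe sets (149, of which 80 rose and 69 fell). At an unadjusted p under 0.05 there were 4 of 23, against 7.5% of all, and for 5 of 23 the knockdown and control arrays did not overlap, against 13.8% of all. The median size of the difference was 0.080 on the log2 scale over the 23 probe sets and 0.085 over all of them. The 5 that did not overlap read SCARB1 (at 2 probe sets), CYP19A1, HSD17B1 and HSD3B2.

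The largest differences above background were those of SCARB1. Its log2 difference, knockdown minus control, was −0.33 (standard error 0.08, 95% confidence interval −0.51 to −0.15, limma adjusted p = 0.266) at 1552256_a_at and −0.28 (standard error 0.08, −0.46 to −0.10, adjusted p = 0.419) at 201819_at, a 1.26-fold and a 1.21-fold lower signal. All 3 knockdown arrays were below all 3 control arrays at both probe sets, for which the exact two-sided permutation test gives p = 0.1, the smallest that 3 against 3 allows. These probe sets read the same gene on the same arrays and are not independent of each other. CYP19A1 at 203475_at had a difference of −0.20 (standard error 0.09, −0.40 to 0.0039, limma adjusted p = 0.674), which left it 0.06 above background after knockdown.

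STAR differed by 0.11 (standard error 0.08, 95% confidence interval −0.07 to 0.30, limma adjusted p = 0.805), an interval that holds a small fall as well as a rise. POR differed by 0.13 (standard error 0.09, −0.07 to 0.34, adjusted p = 0.791) and FDX1 by −0.03 (standard error 0.08, −0.21 to 0.15, adjusted p = 0.961) at its brightest probe set. For HSD17B1 the probe sets disagreed: 205829_at, below background in both groups, had a difference of 0.31 (standard error 0.09, adjusted p = 0.422) with no overlap between the groups, and 228595_at, above background, had one of −0.04 (standard error 0.10, adjusted p = 0.962). HSD3B2 had a difference of 0.23 (standard error 0.08, adjusted p = 0.570) with all arrays below background. The other 14 probe sets, all of them below background except the other FDX1 probe sets, had differences of −0.26 to 0.11 and overlapping groups.

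**Figure D2:**
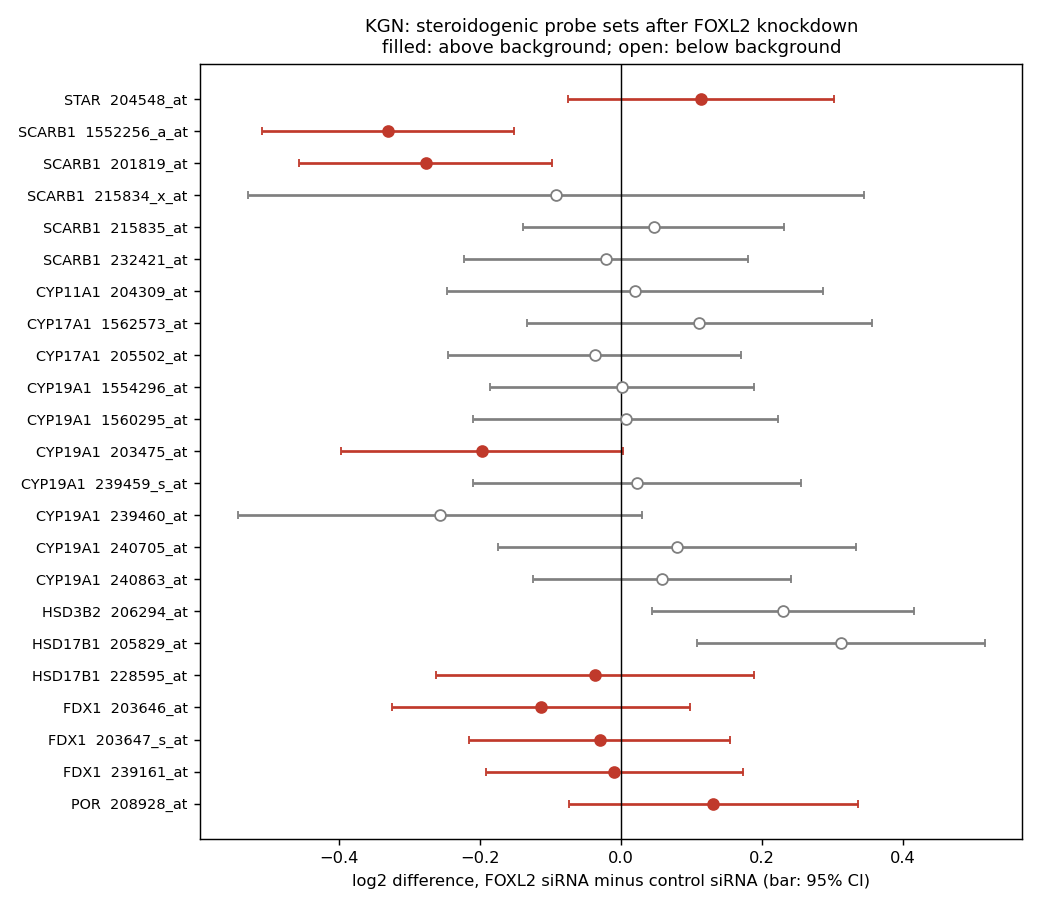
Log2 difference, FOXL2 siRNA minus control siRNA in KGN (horizontal axis), of the 23 probe sets; bars are 95% confidence intervals from limma on 3 against 3 arrays, filled points lie above background. The intervals of both bright SCARB1 probe sets lie below 0, that of STAR spans it (−0.07 to 0.30), and none passed the adjusted threshold.

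Whether adding FOXL2 moved these genes in COV434 was tested in a single limma fit of the 9 arrays. With wildtype FOXL2 against empty vector, 0 of 23 probe sets were called and 0% of all probe sets, and at an unadjusted p under 0.05 there were 3 of 23, against 11.1% of all. With mutant FOXL2 against empty vector, again 0 of 23 and 0% of all were called, and 5 of 23 reached an unadjusted p under 0.05, against 13% of all. These 8 unadjusted results, with some probe sets in both comparisons, were all lower than with empty vector. Falls were the more common over all probe sets too, 4075 of 6042 with wildtype and 4478 of 7095 with mutant FOXL2. Of the 8, those with wildtype FOXL2 were at probe sets below background. Of those with mutant FOXL2 a single probe set lay above it, FDX1 at 203647_s_at. There the log2 difference was −0.24 (standard error 0.09, adjusted p = 0.341), and −0.17 without RR1016 (standard error 0.08, adjusted p = 0.250). Both comparisons use the same 3 empty vector arrays, so they are not independent.

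SCARB1 and POR changed sign with array RR1016, where SCARB1 at 1552256_a_at lay 2.16 and POR 2.38 log2 units below the mean of the other empty vector arrays. Among all probe sets, 95% of such deviations lay between −1.15 and 0.75. With all arrays the SCARB1 difference was 0.42 (standard error 0.47, limma adjusted p = 0.749) with wildtype and 0.47 (standard error 0.47, adjusted p = 0.683) with mutant FOXL2, and the POR difference was 0.51 (standard error 0.51, adjusted p = 0.715) and 0.45 (standard error 0.51, adjusted p = 0.724). Without RR1016 the SCARB1 difference was −0.30 (adjusted p = 0.155) and −0.25 (adjusted p = 0.219), and that of POR was −0.28 (adjusted p = 0.120) and −0.34 (adjusted p = 0.0706). FDX1 at 203646_at also turned, from −0.01 to 0.17 with wildtype and from −0.09 to 0.09 with mutant FOXL2, and HSD17B1 at 205829_at turned from 0.07 to −0.11 with mutant FOXL2, none of them called. The choice to leave the array out was made with its values known, and 2 empty vector arrays then remained.

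Without RR1016 the call count stayed at 0 of 23 for both plasmids, while 2.3% of all probe sets (1257) were called with wildtype and 2.99% (1633) with mutant FOXL2. STAR and the CYP19A1 probe set 203475_at stayed below background with both plasmids, at means of 4.13 to 4.18 and 3.0 to 3.03. HSD17B1 at 228595_at had differences of −0.14 with wildtype and −0.12 with mutant FOXL2 (standard error 0.14 for each, adjusted p = 0.713 and 0.735), and −0.25 and −0.23 without RR1016 (standard error 0.13, adjusted p = 0.309 and 0.335). Neither FOXL2 plasmid thus brought a further gene of the set above background.

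**Figure D3:**
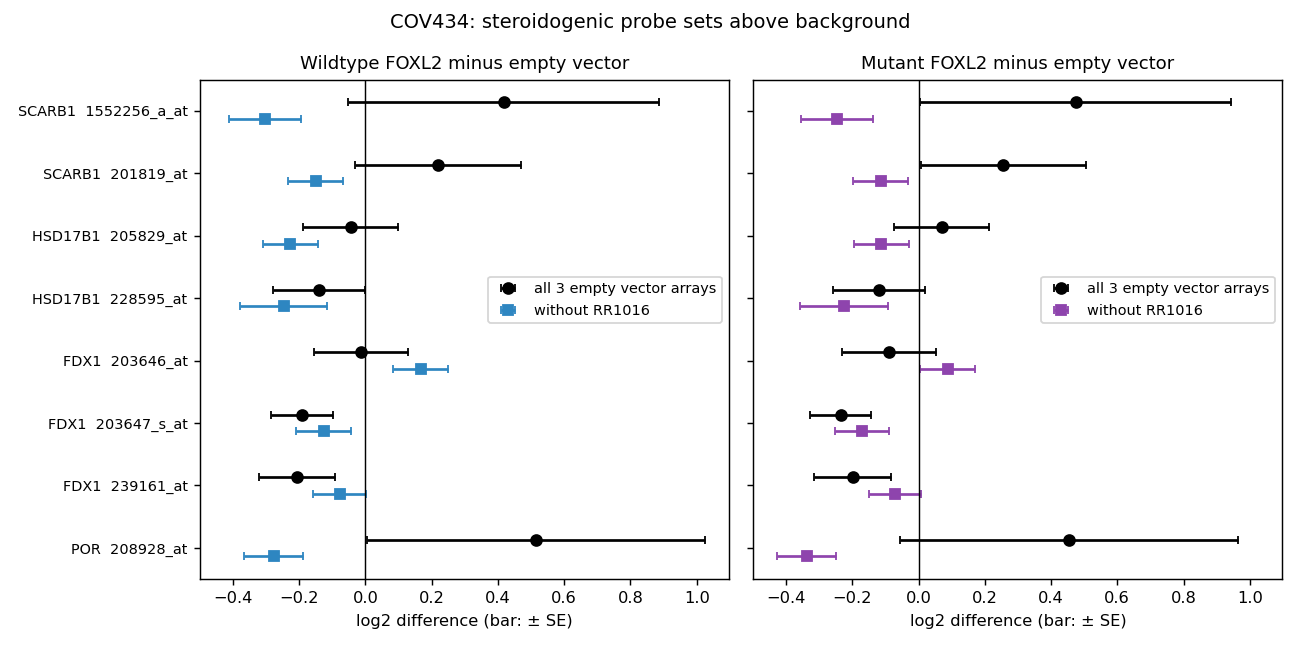
Log2 difference from empty vector (horizontal axes) of the 8 probe sets above background in COV434, with wildtype FOXL2 (left) and mutant FOXL2 (right); points are limma estimates, bars ± standard error, black with all 3 empty vector arrays and coloured without RR1016. SCARB1 and POR move from above 0 to below 0 when RR1016 is left out, for example POR from 0.51 to −0.28 with wildtype FOXL2.

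Mutant and wildtype FOXL2 were compared with each other in the same fit, a comparison that does not use the empty vector arrays except for the estimate of the spread. Of 23 probe sets 0 were called and 0% of all, and 1 of 23 reached an unadjusted p under 0.05, HSD3B2, against 1.11% of all. HSD3B2 had log2 signals of 3.27, 3.28 and 3.51 with wildtype and 3.76, 3.51 and 3.52 with mutant FOXL2, a difference of 0.25 (standard error 0.11, adjusted p = 1) below background. The median size of the difference was 0.05 over the 23 probe sets and 0.07 over all. At the 8 probe sets above background the differences, mutant minus wildtype, ran from −0.08 to 0.11.

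The control cells of the lines were compared next, KGN control minus COV434 empty vector. Line, passage and kind of control differ together here and cannot be told apart, and each line seems to have been normalised on its own, since 1012 to 4297 probe sets had equal values between any 2 COV434 arrays, 21 to 93 between any 2 KGN arrays and 0 between the lines. By limma 11 of 23 probe sets were called, 5 higher and 6 lower in KGN, against 51.8% of all probe sets (21127 higher and 7156 lower). Without RR1016 it was 14 of 23, 5 higher and 9 lower, against 57.7% of all. After quantile normalization of the 6 arrays together it was 14 of 23, 4 higher and 10 lower, against 44.1% of all (10375 higher and 13699 lower). The median over all probe sets moved with this normalization from 0.27 to −0.07, so that a difference smaller than this shift has no settled direction here. Calls were common over the whole array in each setting, so the genes are described by the size and direction of their differences.

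STAR had a measured difference of 4.0 on the log2 scale (standard error 0.12, limma adjusted p = 5.99e-08) and of 3.61 after the joint normalization. Its COV434 mean of 4.3 lay below background, and on the deposited scale the KGN signal was 9.52-fold above the COV434 background level. CYP19A1 at 203475_at had a measured difference of 2.53 (standard error 0.12, adjusted p = 9.35e-07), and of 2.10 after the joint normalization. Most of it lay below background, with a COV434 mean of 3.03 and a KGN mean 0.26 above the KGN background level. On the deposited scale the KGN signal was 1.42-fold above the COV434 background level. Such folds compare lines that seem to have been normalised apart, and they were not recomputed after the joint normalization. CYP11A1 was higher by 1.6 (standard error 0.17, adjusted p = 0.000111), 1.15 after the joint normalization, with both lines below background. The 6 KGN and COV434 control arrays did not overlap for any of these genes, and the exact two-sided permutation test gives p = 0.1, its smallest value.

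FDX1 and HSD17B1 went the other way. FDX1 was lower in KGN, with a difference of −2.57 (standard error 0.12, adjusted p = 7.36e-07) at 203647_s_at, and its other probe sets gave −2.39 and −2.61 (standard errors 0.17 and 0.14). HSD17B1 was lower too, with −2.32 (standard error 0.14, adjusted p = 3.34e-06) at 228595_at and −3.20 (standard error 0.17, adjusted p = 1.82e-06) at 205829_at. The KGN level of the latter lay below background, and on the deposited scale its COV434 signal was 3.12-fold above the KGN background level. All 5 probe sets kept their direction and their call without RR1016 and after the joint normalization, where they lay between −3.57 and −2.70. For these genes every probe set gave the same answer, unlike for SCARB1.

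SCARB1 and POR depended on RR1016. SCARB1 at 1552256_a_at had a difference of −1.19 (standard error 0.53, adjusted p = 0.0922) with all arrays −1.91 (adjusted p = 1.78e-05) without it and −1.52 (adjusted p = 0.0446) with all arrays after the joint normalization, and POR −0.43 (standard error 0.58, adjusted p = 0.561), −1.22 (adjusted p = 0.000105) and −0.77 (adjusted p = 0.290). The SCARB1 probe sets disagreed in direction: 201819_at gave −0.71 (adjusted p = 0.0659) and 232421_at −1.20 (adjusted p = 0.00825), while 215834_x_at gave 0.80 (adjusted p = 0.0662) and 215835_at 0.31 (adjusted p = 0.0475). The last 3 lay below background in both lines. CYP17A1 at 205502_at had 0.43 (standard error 0.16, adjusted p = 0.0534) as deposited and −0.011 after the joint normalization, and HSD3B2 had −0.21 (adjusted p = 0.135) and −0.61 (adjusted p = 0.00241), both genes below background. For CYP17A1 the scaling sets the sign and for HSD3B2 the call.

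**Figure D4:**
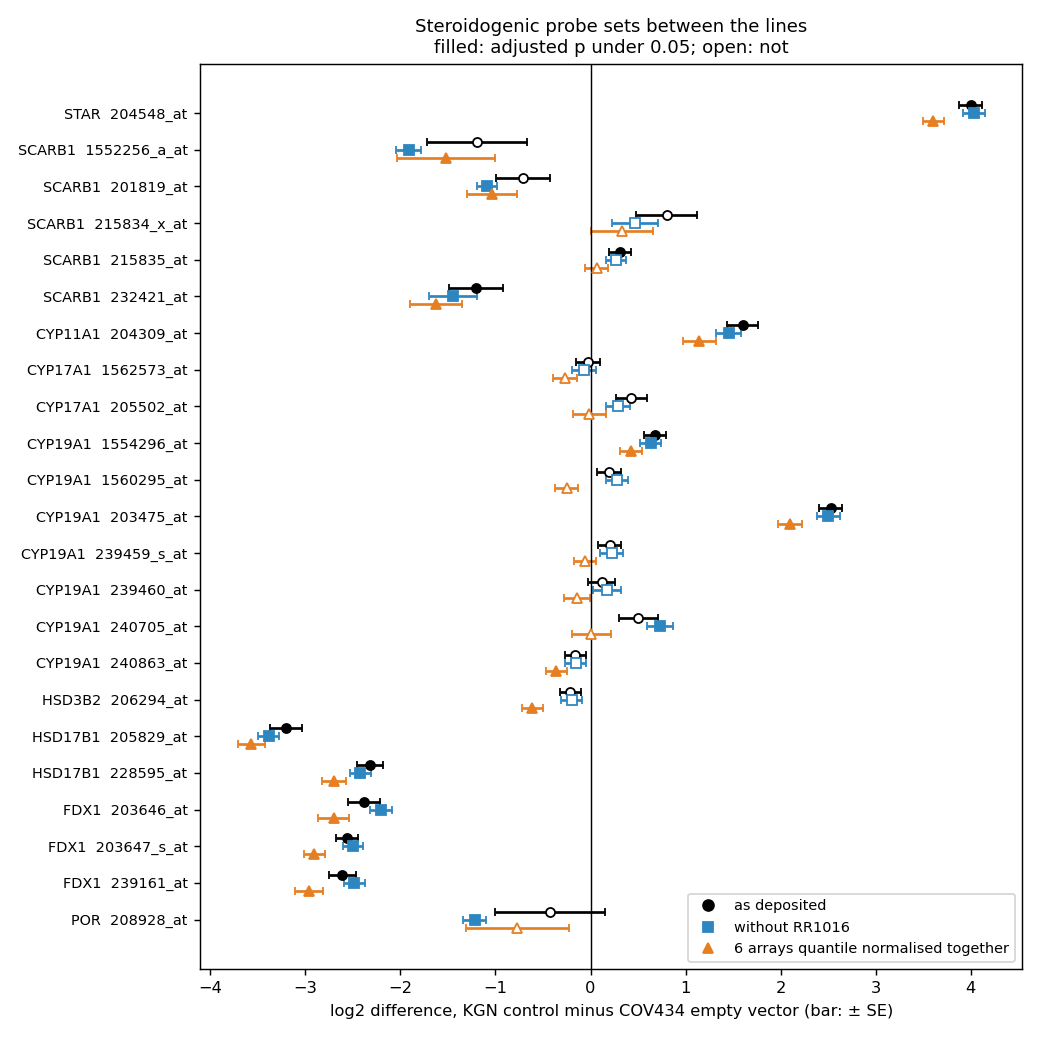
Log2 difference, KGN control minus COV434 empty vector (horizontal axis), of the 23 probe sets; black circles as deposited, blue squares without RR1016, orange triangles after quantile normalization of the 6 arrays together, bars ± standard error, filled where the adjusted p is under 0.05. STAR (4.0) and CYP19A1 at 203475_at (2.53) lie far to the right and all FDX1 and HSD17B1 probe sets lie beyond −2 under each setting, while POR and the bright SCARB1 probe sets are called without RR1016.

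The rest of the steroid pathway was read from a list of 33 further enzymes, of which 30 were measured, each at its brightest probe set. In the knockdown and in the 3 COV434 comparisons with all arrays 0 of 30 were called by limma, and at an unadjusted p under 0.05 there were 0 of 30 after knockdown, 2 with wildtype FOXL2, 4 with mutant FOXL2 and 1 between mutant and wildtype, against 7.5%, 11.1%, 13% and 1.11% of all probe sets. Without RR1016, 1 of 30 was called with each plasmid, against 2.3% and 2.99% of all. It was HSD17B3, which makes testosterone, with 0.47 with wildtype (adjusted p = 0.0482) and 0.58 with mutant FOXL2 (adjusted p = 0.0303), and with means of 3.36, 3.80 and 3.92 in the empty vector, wildtype and mutant groups, below background in each. Between the lines 15 were higher and 4 lower in KGN as deposited, with a median difference of 0.44 against 0.27 over all probe sets, and 10 were higher and 6 lower after the joint normalization. These are 63.3% and 53.3% of the list, against 51.8% and 44.1% of all probe sets. Above background lay 15 of 30 in KGN control and 12 of 30 in COV434 empty vector.

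PAPSS2, which makes the sulphate donor used to sulphate steroids, had 13.20 in KGN and 4.93 in COV434, a difference of 8.26 (standard error 0.14, adjusted p = 5.37e-09). AKR1C3, which reduces androstenedione and progesterone, had 10.69 and 2.59, a difference of 8.10 (standard error 0.11, adjusted p = 3.32e-09). AKR1C1 and AKR1C2 were higher by 5.62 and 4.32, but the AKR1C genes are near-identical in sequence and their probe sets can share signal, so the split among them is uncertain. HSD17B14, a 17-beta-hydroxysteroid dehydrogenase, was lower in KGN, with a difference of −3.11 (standard error 0.20, adjusted p = 6.57e-06). After the joint normalization the differences were 7.92 for PAPSS2, 7.79 for AKR1C3 and −3.50 for HSD17B14. The dimmer line lay below background for each, so the brighter line was set against the background level of the dimmer line on the deposited scale. It stood 283-fold above that level for PAPSS2, 49.9-fold for AKR1C3 and 7.73-fold for HSD17B14.

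**Figure D5:**
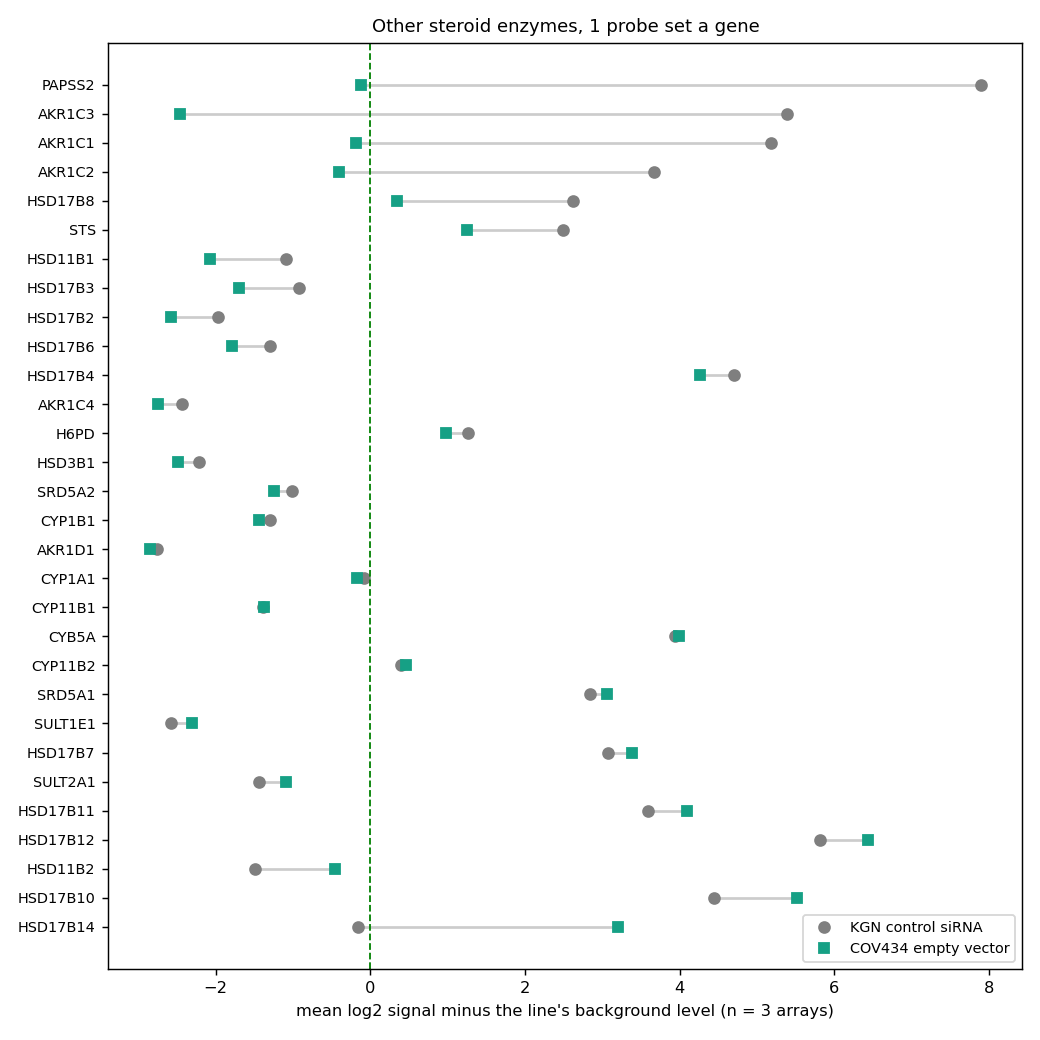
Mean log2 signal minus the background level of the line (horizontal axis, n = 3 arrays) for 30 further steroid enzymes, with KGN control as grey circles and COV434 empty vector as green squares, ordered by the difference between the lines as deposited. PAPSS2 and the AKR1C genes lie far above background in KGN and below it in COV434, and HSD17B14 the reverse.

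Cholesterol handling inside the cell was read from 12 genes, 11 of them measured. Within the lines 0 of 11 were called. At an unadjusted p under 0.05 there was 1 after knockdown, 1 with wildtype, 1 with mutant and 0 between mutant and wildtype FOXL2, against 7.5%, 11.1%, 13% and 1.11% of all probe sets. None was called without RR1016 either, against 2.3% of all with wildtype and 2.99% with mutant FOXL2. Between the lines 6 were higher and 1 lower in KGN (63.6%), with 5 and 1 after the joint normalization (54.5%), against 51.8% and 44.1% of all probe sets. TSPO, a cholesterol-binding protein of the outer mitochondrial membrane, was higher by 2.10, the lysosomal cholesterol carrier NPC2 by 1.89 and the cholesterol-esterifying enzyme SOAT1 by 1.61, while STARD4, a soluble sterol carrier related to StAR, had −1.73 and was lower. STARD5, of the same family, was higher by 2.06 against a COV434 level below background.

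The regulators of steroid genes, 18 measured of 20, differed between the lines in both directions, 7 higher and 5 lower in KGN (66.7%, against 51.8% of all probe sets) and 5 higher and 5 lower after the joint normalization (55.6%, against 44.1%). NR5A1, whose site lies in the CYP19A1 stretch above, had a mean of 4.29 in KGN control and 4.45 in COV434 empty vector, below background in both. Its relative NR5A2 (LRH-1) had 3.85 and 10.64, a measured difference of −6.79 (standard error 0.21, adjusted p = 7.18e-08) with the KGN level below background, and the nuclear receptors NR4A2 and NR4A3 were lower in KGN, with differences of −6.88 and −3.81. NR2F1 (COUP-TF1) was lower, with −3.88, and FOXL2 higher by 5.20. Within the lines and with all arrays FOXL2 alone was called, in the knockdown, and at an unadjusted p under 0.05 there were 2 of 18 after knockdown, 4 with wildtype, 5 with mutant and 0 between mutant and wildtype FOXL2, against 7.5%, 11.1%, 13% and 1.11% of all probe sets. Without RR1016, 1 of 18 was called higher and 1 lower with each plasmid, against 2.3% of all probe sets called with wildtype and 2.99% with mutant FOXL2. In that setting NR4A3 was lower with wildtype and with mutant FOXL2 (−0.67 and −0.64, adjusted p = 0.0219 and 0.0263), and PRKAR1A, the regulatory subunit of protein kinase A, was higher (1.08 and 0.92, adjusted p = 0.0165 and 0.0261).

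The labelled cell type was checked against 12 granulosa cell markers, of which 11 were measured and CYP19A1 is 1. In KGN control 6 of 11 lay above background, FOXL2, INHBA, INHBB, WT1, GATA4 and FST, and in COV434 empty vector 4 of 11, INHBA, WT1, GATA4 and FST. CYP19A1 was counted here at 240705_at, below background, while its probe set 203475_at lay above background in KGN control by a small margin. The FSH receptor FSHR, the inhibin subunit INHA, NR5A1 and AMHR2 lay below background in both lines. The summed linear signal of the list was 5240 to 6006 in KGN control and 2315 to 2694 in COV434 empty vector. After knockdown 1 of 11 was called higher and 1 lower, against 0.273% of all probe sets. INHBB, an activin subunit, rose by 0.60 (standard error 0.09, limma adjusted p = 0.0364), and the gene that fell was FOXL2, the target of the siRNA. Without RR1016, 1 of 11 was called with each plasmid, against 2.3% of all probe sets with wildtype and 2.99% with mutant FOXL2. It was INHBA, another activin subunit, which was lower with both (−0.56 with wildtype and −0.71 with mutant FOXL2, adjusted p = 0.0489 and 0.0303). Of theca and Leydig cell markers 1 of 5 lay above background in KGN control and 1 of 5 in COV434 empty vector, in both PTCH1, at 5.32 and 10.41, and INSL3 and LHCGR lay below it. Of leukocyte and endothelial markers 1 of 6 lay above background in KGN control and 2 of 6 in COV434 empty vector, with summed linear signals of 117 to 137 and 222 to 341, and PTPRC had 3.24 in KGN and 7.45 in COV434. Of adrenal cortex markers 2 of 4 lay above background in KGN control and 1 of 4 in COV434 empty vector, with summed linear signals of 125 to 148 and 85 to 93.3. With mutant FOXL2 and without RR1016, 1 of 4 was called, against 2.99% of all probe sets. It was MC2R, below background (0.60, adjusted p = 0.0481). The part of these differences in the results between the lines was not tested.

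The genes whose pattern was most like that of a steroidogenic gene were sought by Pearson's r over the 15 arrays after the mean of each line was subtracted, among 12735 or 12736 genes above background in a line. These are descriptions, and the arrays of a line share their normalisation. For the values without RR1016 this array was dropped only after the subtraction, so they still carry it through the COV434 mean. They are therefore no check that is free of RR1016. For SCARB1 they were PI4K2A, LIPA (the lysosomal enzyme that frees cholesterol from its esters) and CNN2, with r of 0.987, 0.987 and 0.985, and with r of 0.914, 0.912 and 0.892 without RR1016. For STAR they were COQ6, P2RY2 and VPS33A, with r of 0.872, 0.829 and 0.823, and COQ6 came first without RR1016 too, at 0.839, before another gene of coenzyme Q synthesis, COQ8B, at 0.835. For CYP11A1 they were ATOSB, DISP1 and SLC68A1 (0.855, 0.827 and 0.800) and for CYP19A1 at 240705_at C1GALT1, C9orf78 and RAB8B (0.869, 0.867 and 0.856), both at signals below background. Without RR1016 the 3 genes stayed the same for SCARB1, while for CYP19A1 all 3 were replaced. For CYP11A1 ATOSB stayed first at 0.763, and ZNF717 (0.761) and YTHDF3-DT (0.731) replaced the others.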

How the data were processed

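The authors checked the scans of 15 Affymetrix U133 Plus 2 arrays with AffyQCReport and made log2 signals by RMA with background correction in R; these log2 values, 1 per probe set and array, were deposited. Versions are not given in the sources used here. Starting from them, 62 array controls were left out, and symbols came from the platform annotation, updated through RefSeq gene identifiers. Groups follow the sample labels. Comparisons used limma 3.58.1 in R 4.3.3 (lmFit, eBayes, two-sided) with Benjamini-Hochberg adjustment over 54613 probe sets and a threshold of 0.05: 6 KGN arrays, 9 COV434 arrays in a single fit, and 6 control arrays for the lines. The fits were tested on simulated data. For the further lists each gene was read at its brightest probe set on average. Among the list genes, those called within a line and the 5 per list with the largest called difference between the lines that were above background in a line were to be named, with markers set beside a result. The genes and lists were chosen with earlier results of these data known. The samples of a group were transfected on the same occasion, so p-values measure the spread between those samples, which may be technical. Arrays have no depth; 3 per group limit the precision, and differences near background are compressed.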

Additional observations from a re-analysis of the deposited data

How the results depend on the processing

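The counts of called genes were recomputed, at 1 probe set a gene, under leaving out each array, a filter on low signals, trend and robust moderation, array quality weights, the mean of a gene's probe sets and other fits. For knockdown, both plasmids and mutant against wildtype the count was 0 under each of these. Between the lines it was 4 of 9 genes as deposited and 4 to 7 when an array was left out (7 without RR1016). It was 7 with array quality weights, 3 with the filter, 4 with trend and robust moderation and 5 with probe set means. With quantile normalization or median centring it was 6. Of all probe sets 51.8% were called as deposited, 57.7% without RR1016 and 44.1% after quantile normalization. The count as deposited read CYP19A1 at 240705_at, below background and not called (limma adjusted p = 0.0753), while its probe set 203475_at was called. Counted by any probe set, 6 of 9 genes were called as deposited. Among the differences followed through every alternative, those that turned were of CYP17A1 between the lines, −0.011 after joint quantile normalization and −0.063 with arrays centred on their median, and, with RR1016 left out, of SCARB1 and POR against empty vector: over the arrays left out SCARB1 ran from −0.30 to 0.87 with wildtype and from −0.25 to 0.93 with mutant FOXL2, its probe set 201819_at from −0.11 to 0.45 with mutant, and POR from −0.28 to 0.95 and from −0.34 to 0.89. With array quality weights POR with mutant FOXL2 was −0.034. Of 355 recomputed differences, 336 kept their direction and side of the threshold, 11 newly passed it and 8 turned. With background at the 99th percentile of the same probe sets, 6 of 23 lay above it in KGN, without CYP19A1 at 203475_at and HSD17B1, and 8 in COV434. No paired analysis was possible because the labels carry no replicate numbers. CYP11A1, CYP17A1 and HSD3B2 lay below background, so differences in their signals may not be differences in transcript.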
